A study of Neurospora crassa with 24 samples.

Results

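The 7 genes described here serve fatty acid breakdown, the peroxisome and fatty acid synthesis in the filamentous fungus Neurospora crassa, and they were taken by gene ID from the 9730 genes of both deposited tables. They are fox-2 (NCU08828), pex11 (NCU04802), the regulators far-1 (NCU08000) and far-2 (NCU03643), the fatty acid synthase subunit genes cel-2 (NCU07307) and cel-1 (NCU07308), and the acetyl-CoA carboxylase gene (NCU08535). Of these, 4 carry a symbol in the reference annotation, and the names of far-1, far-2 and the acetyl-CoA carboxylase gene come from the selection itself. Macroconidia of the mat A wild-type strain FGSC2489, all harvested from cultures on Bird medium, were spread on cellophane over either synthetic Bird medium (BM) or maple sap medium (MSM, a plant sap with very little nitrogen) and kept in constant light. Samples were taken at 15, 120, 240 and 360 min, called stages 1 to 4 here. On BM most active conidia were then at or past fresh spores, polar growth, doubling of the long axis and the first hyphal branch, respectively. MSM was sampled at these clock times, not at these forms, so a stage number on MSM stands for a time. RNA-seq was run on 24 libraries, with 3 biological replicates for each of the 8 conditions.

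In the NC12 assembly, fox-2 lay on chromosome IV (5100690 to 5104178) and pex11 on chromosome VI (877350 to 878844). The regulator far-1 lay on chromosome IV (3869494 to 3874598) and far-2 on chromosome V (1930747 to 1934109). The synthase genes were neighbours on chromosome IV, with cel-1 at 4422480 to 4429129, cel-2 at 4431604 to 4439201, 2474 bases and 0 annotated genes between them. The acetyl-CoA carboxylase gene lay on chromosome III (5005328 to 5013687).

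Fungi break down fatty acids by beta-oxidation, which shortens the chain and releases acetyl-CoA, and peroxisomes hold enzymes of this pathway. Fatty acid synthesis runs the other way in the cytosol: acetyl-CoA carboxylase makes malonyl-CoA, and a large synthase of alpha and beta subunits joins these units into a chain. Conidia store lipid, and both the use of that store and the building of new membrane accompany germination and hyphal growth.

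The deposited value of a gene is its level relative to the stage at which that gene was lowest on the same medium, with a 95% interval, estimated by the authors from the 3 replicates together. Levels therefore rank the stages of a single gene on a single medium, give no order of genes or of media, and no replicate values were available to give an SD. All 7 genes had an interval above 0 at all 4 stages on both media. Because most genes shifted together between some stages, each log2 change is given relative to the median of all tested genes, with its standard error (SE) from the deposited intervals, and was called by a two-sided z test when its Bonferroni adjusted p over all tested genes was under 0.01. The median shift was −0.37, 0.42 and −0.30 log2 units over the successive steps on BM and 0.02, −0.04 and 0.15 on MSM. Over the whole course it was −0.30 on BM and 0.13 on MSM. Relative to the median, 50.8%, 50.4% and 46.6% of the called genes were lower in the steps on BM and 49.2% over the whole course, against 88.3%, 24.9%, 83.9% and 62.5% as deposited. On MSM these shares were 49.9%, 48.2%, 49.7% and 49.2%, against 48.4%, 51.6%, 36.8% and 45.4%. Consecutive steps share the libraries of the stage between them. Bulk RNA cannot separate a change in each cell from a change in how many cells expressed a gene.

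**Figure D1:**
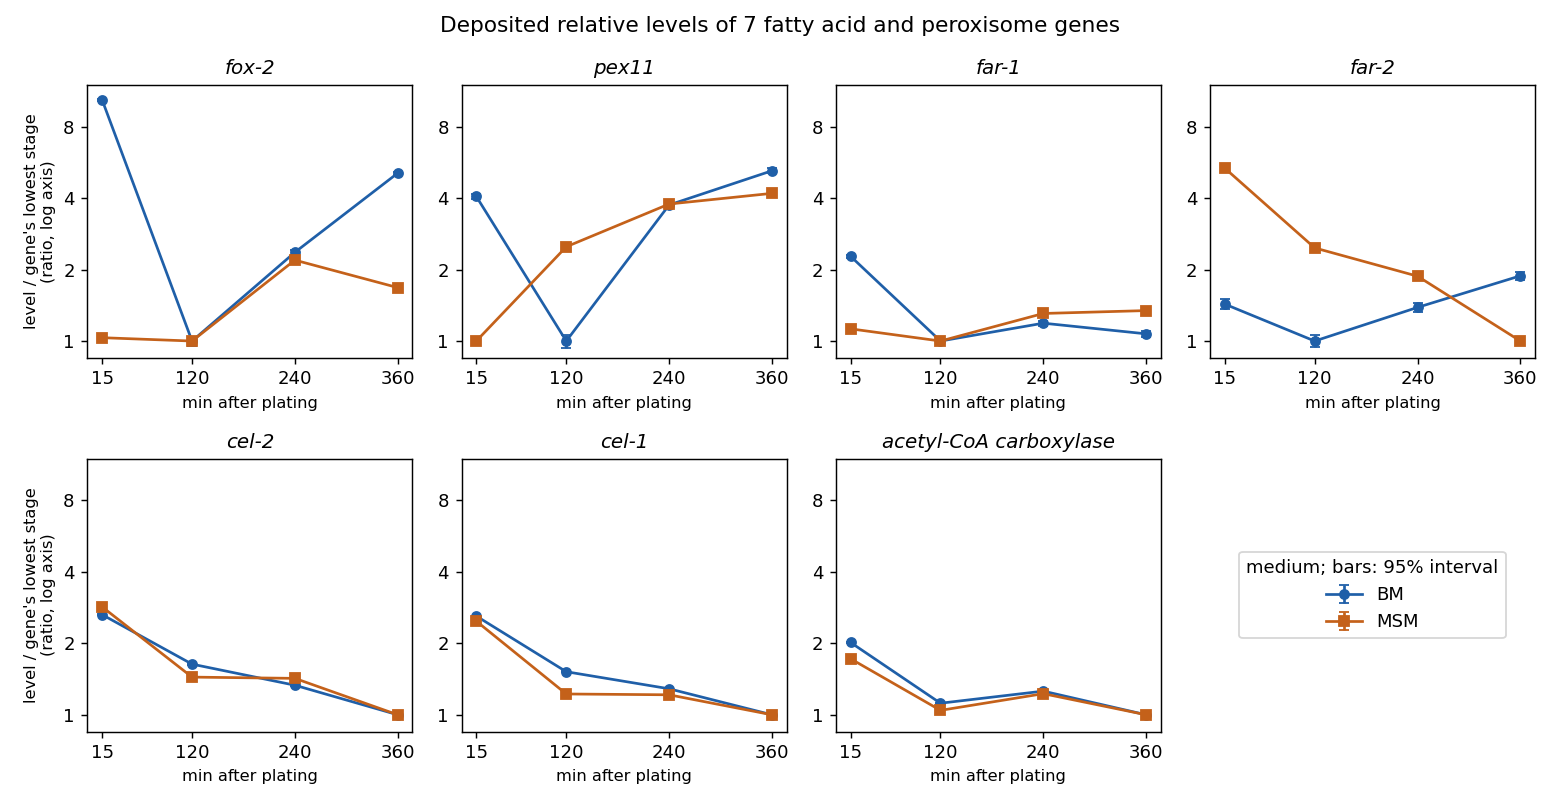
Relative level of each of the 7 genes (vertical log axis, lowest stage of that gene on that medium = 1) at the 4 sampling times in minutes on BM and MSM, with deposited 95% intervals. On BM fox-2 dropped from 10.4 to 1 between 15 and 120 min and climbed back to 5.10 at 360 min, whereas on MSM it stayed between 1 and 2.19.

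On BM, fox-2 was high in fresh conidia, collapsed by the onset of polar growth and then recovered in part. On MSM it did not collapse and peaked at 240 min. The gene encodes the multifunctional beta-oxidation enzyme of the peroxisome, which carries out the hydration and dehydrogenation of the fatty acyl chain. Its level on BM was 10.4 (95% interval 10.3 to 10.5) at stage 1, 1 (0.957 to 1.04) at stage 2, 2.37 (2.31 to 2.42) at stage 3 and 5.10 (5.03 to 5.17) at stage 4. No intervals overlapped, and the order from low to high was stages 2, 3, 4 and 1. Its level on MSM was 1.03 (1.02 to 1.05), 1 (0.988 to 1.01), 2.19 (2.18 to 2.21) and 1.68 (1.66 to 1.69). There the first pair of stages lay within a few percent of each other and stages 3 and 4 stood above them.

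The fall of fox-2 on BM amounted to −3.01 ± 0.031 log2 units relative to the median, an 8.04-fold decrease, and only 0.323% of the tested genes lay lower. Its rises on BM were 0.83 ± 0.035 from stage 2 to 3 and 1.40 ± 0.020 from stage 3 to 4, and the second of these exceeded the change of 97.9% of genes. The recovery was incomplete, and from stage 1 to 4 fox-2 fell by 0.73 ± 0.012. On MSM it rose by 1.17 ± 0.011 from stage 2 to 3 and fell by 0.53 ± 0.0085 from stage 3 to 4, and it was higher by 0.57 ± 0.011 at stage 4 than at stage 1. Its small change on MSM from stage 1 to 2, −0.07 ± 0.013, was called relative to the median but not as deposited (−0.047), and it turned to 0.12 when centred on the most precise genes. The conidiation genes con-6, con-8, con-10, con-13, eas and ccg-1, whose transcripts are abundant in conidia, moved over the same step: 6 of 6 fell on BM with a median of −1.66, beside 31.1% of all tested genes, and on MSM 5 fell and 1 rose with a median of −0.22, beside 36% and 36.2%. From stage 3 to 4 on BM, when fox-2 rose, 5 of these 6 fell, beside 27.1% of all genes, and their median was −1.91. On MSM in that step, when fox-2 fell, 4 of the 6 rose and 1 fell (median 0.15), beside 34.1% and 33.7% of all genes. As deposited 5 rose and 0 fell, beside 44% and 25.6%. There ccg-1 and con-10 had their highest level at stage 4 (4.06 and 2.64). The part of leftover conidial RNA in the fox-2 change was not tested.

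The acyl-CoA dehydrogenase symbols acd-1, acd-2 and acd-3 were read as further oxidation genes, although only acd-3 is annotated with that activity in the sources used here. All 3 fell on BM from stage 1 to 2, by 2.19 ± 0.033, 2.87 ± 0.032 and 1.94 ± 0.022, beside 31.1% of all genes. They then parted: acd-1 rose by 1.65 ± 0.035 and acd-2 by 0.66 ± 0.039 from stage 2 to 3, while acd-3 fell by 1.50 ± 0.039. The stage levels of acd-2 on BM were 9.43, 1, 2.12 and 3.64, in the same order as those of fox-2. On MSM the 3 genes changed from stage 1 to 2 by −0.15 ± 0.024, −0.21 ± 0.014 and −1.39 ± 0.017. All 3 were called lower, beside 36% of all genes, but only 1 was when centred on the most precise genes. From stage 2 to 3 on MSM acd-1 and acd-2 rose by 2.25 ± 0.018 and 0.95 ± 0.012, while acd-3 changed by −0.16 ± 0.021. In that step fox-2 rose as well.

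On BM pex11 followed the same order of directions as fox-2, but on MSM it climbed from the first stage onward. The gene encodes a peroxisomal membrane protein that elongates the organelle before it divides. Its level on BM was 4.07 (3.96 to 4.18), 1 (0.936 to 1.06), 3.74 (3.65 to 3.86) and 5.22 (5.11 to 5.35) at stages 1 to 4. On MSM it was 1 (0.973 to 1.02), 2.50 (2.46 to 2.54), 3.78 (3.74 to 3.82) and 4.19 (4.15 to 4.23). On both media stage 4 was the highest, but the lowest was stage 2 on BM and stage 1 on MSM, with no overlapping intervals.

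The first step took pex11 in opposite directions: on BM it fell by 1.65 ± 0.051, with 3.84% of genes lower, and on MSM it rose by 1.30 ± 0.022, above 91.9% of genes. On BM it then rose by 1.49 ± 0.051 and 0.78 ± 0.027, which more than made up for the fall: it stood 0.66 ± 0.027 higher at stage 4 than at stage 1. On MSM the rise continued with 0.64 ± 0.014 from stage 2 to 3. The step from 3 to 4 was then at the median of all genes (−0.00055 ± 0.011, 95% interval −0.022 to 0.021) and not called, where the level itself went up by 0.15 log2 units. The whole course on MSM was a rise of 1.94 ± 0.020, or 3.83-fold. The same called directions over the 3 steps on BM as fox-2 and pex11 (lower, higher, higher) were found in 574 of 8773 genes, or 6.54%.

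The rest of the peroxisome biogenesis machinery gave a milder version of this contrast between media from stage 1 to 2. Of 18 other pex genes with a reference symbol, 14 rose and 3 fell on MSM from stage 1 to 2 (median 0.40), where 36.2% of all tested genes rose. From stage 2 to 3 on MSM 16 rose and 0 fell (median 0.40), against 34.4% of all genes rising. The counts of 14 and 16 that rose were 15 and 16 both as deposited and when centred on the most precise genes. Of all genes, 37.4% and 32.1% rose as deposited, and 45.7% and 32.6% with that centring. On BM they were split: 4 rose and 9 fell from stage 1 to 2 (median −0.10), beside 30.1% and 31.1% of all genes, and 6 rose and 6 fell from stage 2 to 3 (median −0.05), a share close to the 35.1% and 35.6% of all genes. As deposited these BM counts were 0 and 15, beside 8.09% and 61.2% of all genes, then 13 and 3, beside 56.6% and 18.8%.

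**Figure D2:**
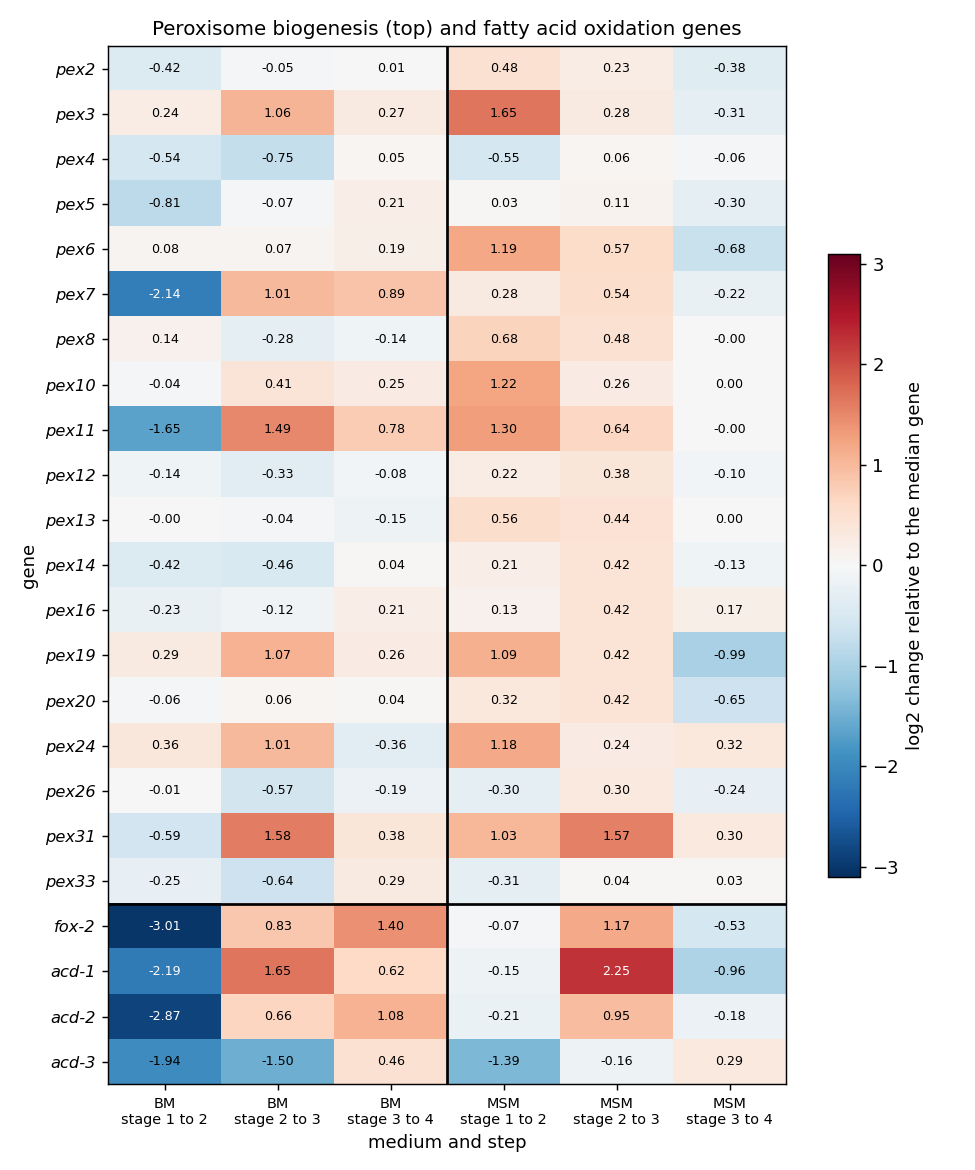
Log2 change relative to the median of all genes (colour scale) of pex11 and the 18 other pex genes, with fox-2 and the acd genes at the bottom, in the 3 steps on each medium. From stage 1 to 2, pex11 and pex7 are the lowest pex genes on BM with −1.65 and −2.14, and pex3 and pex11 lead on MSM with 1.65 and 1.30.

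Among the pex genes pex11 was near an extreme in most steps. On BM from stage 1 to 2, 17 of the 18 others lay above it and only pex7, the receptor for proteins with the second type of peroxisomal targeting signal, fell further, by 2.14 ± 0.064. The stage levels of pex7 on BM were 5.71, 1, 2.69 and 4.07. The receptor for the first type of signal, pex5, fell by 0.81 ± 0.013 in that step and changed by 0.03 ± 0.0094 on MSM, which was not called. On MSM 17 of the 18 lay below pex11 from stage 1 to 2, with pex3 above it at 1.65 ± 0.032. The products of pex3 and pex19 insert membrane proteins into the peroxisome, and pex19 rose by 1.09 ± 0.017 in the same step. From stage 3 to 4 on MSM 10 of the 18 fell and 3 rose, beside 33.7% and 34.1% of all genes. As deposited 7 fell and 8 rose, beside 25.6% and 44%. The largest falls relative to the median were in pex19 (−0.99 ± 0.013), pex6 (−0.68 ± 0.015) and pex20 (−0.65 ± 0.019). The product of pex6 helps to recycle import receptors from the membrane.

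The regulators far-1 and far-2 changed from stage 1 to 4 in opposite directions on each medium, though not in every single step. Both encode zinc cluster transcription factors, and their relatives in Aspergillus nidulans, FarA and FarB, switch on genes of fatty acid use. The level of far-1 on BM was 2.28 (2.24 to 2.31), 1 (0.971 to 1.03), 1.19 (1.16 to 1.22) and 1.07 (1.04 to 1.10). On MSM it was 1.13 (1.11 to 1.15), 1 (0.983 to 1.02), 1.31 (1.29 to 1.33) and 1.34 (1.32 to 1.37). On BM fresh conidia thus stood well above the later stages, and the remaining levels lay close together on each medium. Its intervals at stages 3 and 4 on MSM overlapped.

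The called fall of far-1 on BM from stage 1 to 2 was −0.82 ± 0.024. Its next steps on BM were −0.17 ± 0.028 and 0.15 ± 0.026, and both took the opposite sign as deposited (0.25 and −0.15). On MSM it changed by −0.19 ± 0.019 and 0.42 ± 0.018, and then by −0.11 ± 0.017, where the deposited change was 0.040. The first of these was −0.0082 and not called when centred on the most precise genes. Between stages 1 and 4, the change of far-1 was −0.79 ± 0.022 on BM and 0.13 ± 0.018 on MSM, both called.

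The level of far-2 on BM was 1.43 (1.36 to 1.50), 1 (0.941 to 1.06), 1.39 (1.32 to 1.45) and 1.88 (1.81 to 1.96). Stages 1 and 3 overlapped, stage 2 was lower and stage 4 higher. On MSM it was 5.35 (5.31 to 5.39), 2.47 (2.44 to 2.50), 1.88 (1.85 to 1.90) and 1 (0.978 to 1.02). Each stage there was lower than the one before it, with no overlap.

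Relative to the median, far-2 changed on BM by −0.15 ± 0.056 and 0.06 ± 0.056 over the first pair of steps (95% intervals −0.26 to −0.036 and −0.054 to 0.16), neither of them called over all genes, although as deposited its changes of −0.52 and 0.47 were called. It then rose by 0.74 ± 0.045, above 93% of genes. On MSM it fell by 1.14 ± 0.010, 0.36 ± 0.014 and 1.06 ± 0.019, and from stage 1 to 4 by 2.55 ± 0.016, a 5.85-fold decrease. The change of far-1 less that of far-2 over the whole course was −1.48 ± 0.051 log2 units on BM and 2.68 ± 0.024 on MSM. The intervals of far-2 were wider on BM than on MSM, with an SE of the log2 level of 0.0287 to 0.0438 against 0.00512 to 0.0157.

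The 3 synthesis genes were highest at 15 min and lowest at 360 min on both media. The level of cel-2 on BM was 2.64 (2.63 to 2.65), 1.63 (1.63 to 1.64), 1.33 (1.33 to 1.34) and 1 (0.995 to 1.01), and that of cel-1 was 2.61 (2.60 to 2.61), 1.52 (1.51 to 1.52), 1.29 (1.28 to 1.29) and 1 (0.995 to 1.01). Both declined at each stage, with no overlapping intervals. On MSM cel-2 was at 2.85 (2.84 to 2.86), 1.44 (1.43 to 1.45), 1.42 (1.42 to 1.43) and 1 (0.995 to 1.01), and cel-1 was at 2.48 (2.47 to 2.49), 1.22 (1.22 to 1.23), 1.21 (1.21 to 1.22) and 1 (0.994 to 1.01). Here the decline came in the first and last steps, and the cel-1 intervals at stages 2 and 3 overlapped. The acetyl-CoA carboxylase gene was at 2.02 (2.01 to 2.03), 1.12 (1.11 to 1.12), 1.26 (1.25 to 1.26) and 1 (0.995 to 1.01) on BM. On MSM it was at 1.72 (1.72 to 1.73), 1.04 (1.04 to 1.05), 1.23 (1.22 to 1.23) and 1 (0.994 to 1.01). It differed from the synthase genes in a higher level at stage 3 than at stage 2 on both media.

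On BM cel-2 fell by 0.32 ± 0.0035, 0.71 ± 0.0046 and 0.12 ± 0.0054 over the steps, and cel-1 by 0.41 ± 0.0037, 0.65 ± 0.0048 and 0.07 ± 0.0052. As deposited their changes on BM were −0.69, −0.30 and −0.41 for cel-2 and −0.78, −0.24 and −0.36 for cel-1. The first step then held the largest fall of both genes on BM. The acetyl-CoA carboxylase gene fell by 0.48 ± 0.0045 from stage 1 to 2. Its next change, −0.25 ± 0.0050 relative to the median, was 0.17 as deposited. On MSM the first step held the largest falls of the synthase genes, 2.01-fold for cel-2 (SE 0.0041 log2 units) and 2.06-fold for cel-1 (SE 0.0042), and the acetyl-CoA carboxylase gene fell by 0.74 ± 0.0047. From stage 2 to 3 on MSM neither synthase gene was called (0.020 ± 0.0048 for cel-2 and 0.026 ± 0.0054 for cel-1), while the acetyl-CoA carboxylase gene rose by 0.27 ± 0.0053. In the last step on MSM the 3 genes fell by 0.66 ± 0.0058, 0.43 ± 0.0062 and 0.45 ± 0.0055, in the order cel-2, cel-1 and carboxylase. Called falls relative to the median in all 3 steps on BM, as these genes had, were found in 642 of 8773 genes, or 7.32%. For the acetyl-CoA carboxylase gene the last of these changes was −0.035 ± 0.0053. With the SE multiplied by 3, neither it nor the last fall of cel-1 on BM was called.

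The synthase subunit genes tracked each other closely. The change of cel-2 exceeded that of cel-1 by 0.086 ± 0.0051 from stage 1 to 2 on BM and by 0.036 ± 0.0059 on MSM, and from stage 2 to 3 on MSM the change of cel-2 less that of cel-1 was −0.0061 ± 0.0072. Only in the last step on MSM did the gap pass 0.1, with cel-2 falling further (−0.23 ± 0.0085). Over the 6 changes (3 steps on each medium) the pair had the smallest Euclidean distance among the 7 genes, 0.26, with a Pearson r of 0.96. The acetyl-CoA carboxylase gene lay 0.57 from cel-1 (r = 0.87) and 0.65 from cel-2 (r = 0.85). By contrast fox-2 and pex11 were 2.26 apart and far-1 and far-2 were 1.80 apart, with r of 0.86 and 0.12. The distance grows with the size of the changes, so fox-2 and pex11 lay far apart although their r was high. These distances describe 6 points that share stages.

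**Figure D3:**
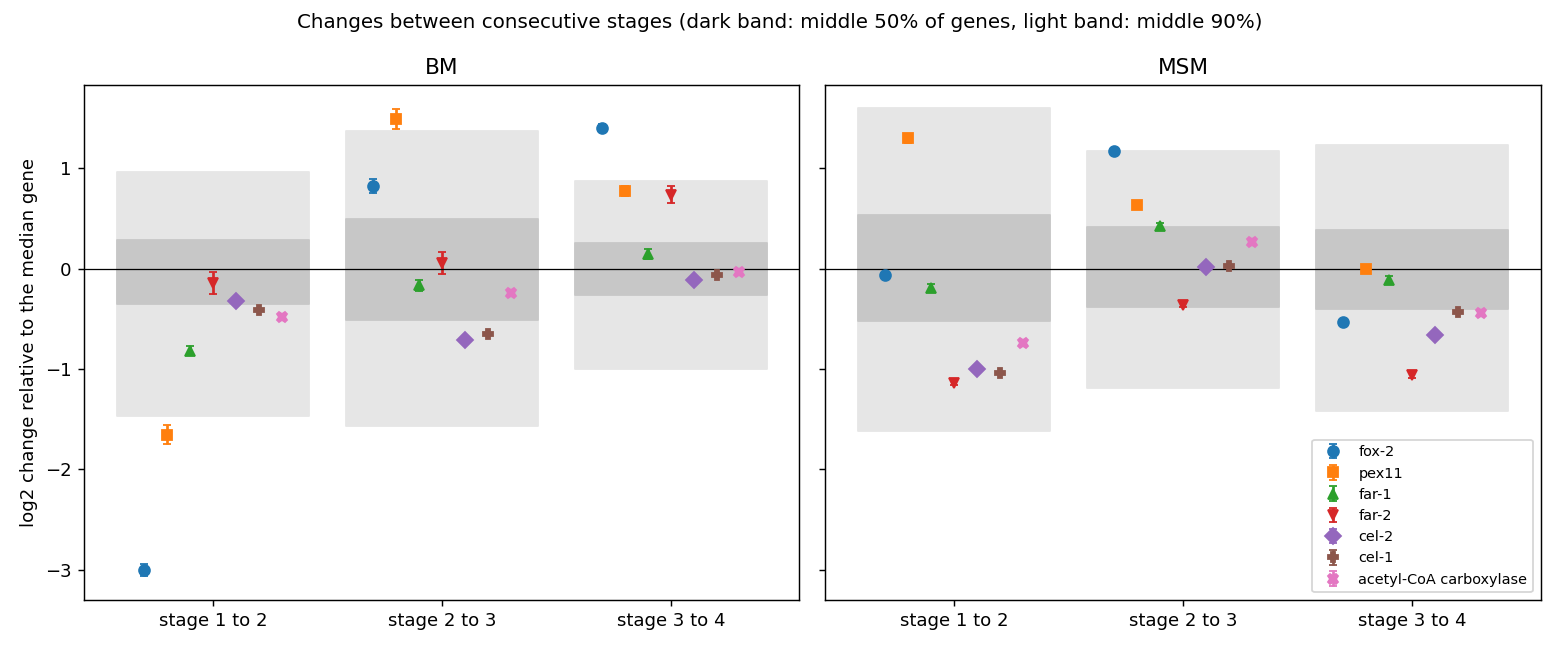
Log2 change of the 7 genes, relative to the median of all genes, on BM and MSM. The steps are from stage 1 to 2, 2 to 3 and 3 to 4, and error bars are 95% intervals. The oxidation and peroxisome genes span −3.01 to 1.49 on BM, whereas the synthesis genes stay between −1.04 and 0.27 on either medium.

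Counted over the 7 genes, 6 were called from stage 1 to 2 on BM, where 61.1% of all tested genes were called. All 6 were lower, as were 31.1% of all genes, and 30.1% were higher. In the second step on BM 2 were higher (fox-2 and pex11) and 4 lower, beside 35.1% and 35.6% of all genes and 70.7% called in either direction. As deposited this balance turned, with 5 higher and 2 lower, beside 56.6% and 18.8% of all genes. In the last step on BM all 7 were called, 4 higher and 3 lower, beside 31.1% and 27.1% of all genes and 58.2% in all, and as deposited 3 were higher and 4 lower, beside 10.9% and 56.7%. Over the whole course on BM pex11 and far-2 were higher and 5 were lower, beside 39.6% and 38.4% of all genes and 78% in all. On MSM the first step had 1 gene higher (pex11) and 6 lower, beside 36.2% and 36% of all genes and 72.2% in all. The second step on MSM had 4 higher and 1 lower (far-2), beside 34.4% and 32% of all genes and 66.5% in all. In the last step on MSM 0 were higher and 6 lower, beside 34.1% and 33.7% of all genes and 67.8% in all. Over the whole course on MSM 3 were higher (fox-2, pex11 and far-1) and 4 lower, beside 41.7% and 40.4% of all genes and 82.1% in all.

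A call was thus common among all genes, and changes of at least 2-fold were rarer. On BM 2, 1 and 1 of the 7 genes reached that size in the successive steps, beside 9.34%, 17.6% and 4.76% of all genes, and 2 over the whole course, beside 33.2%. These were fox-2 and pex11 in the first step, pex11 in the second, fox-2 in the third, and both synthase genes over the whole course. On MSM 4, 1 and 1 did so, beside 20.3%, 10.9% and 13.6% of all genes, and 4 over the whole course, beside 47.8%. The first step on MSM held pex11, far-2 and both synthase genes, the second fox-2 and the third far-2. These counts depended on the centring: as deposited they were 3, 2 and 1 in the steps on BM and 5 over the whole course, beside 13.5%, 23.2%, 6.74% and 34% of all genes, and 3, 1, 0 and 4 on MSM, beside 20.3%, 11%, 14% and 48.1%. The median member change was −0.48, −0.17 and 0.15 on BM and −0.74, 0.27 and −0.45 on MSM, where 0 is the median of all tested genes.

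The media were compared through the difference of each gene's change on MSM and its change on BM, since the conidia came from the same kind of culture but the levels carry no common scale. Relative to the median, all 7 genes differed between media in every step, where 66.2%, 66.3% and 61% of all tested genes did so in the successive steps and 74.8% did so over the whole course. As deposited, fox-2 (−0.11) and far-1 (0.14) were not called in the second step, nor was the acetyl-CoA carboxylase gene (0.036) in the last. With the SE multiplied by 3, fox-2 and far-2 lost the call in the second step and far-1 in the last. The difference was positive for 3 of the 7 in the first step (33.1% of all genes, against 33% negative), for 5 in the second (34% against 32.3%), for 0 in the last (28.6% against 32.4%) and for 3 over the whole course (37.6% against 37.2%). As deposited, the called differences were 4 positive and 3 negative in the first step, 3 and 2 in the second, 2 and 4 in the last and 5 and 2 over the whole course, beside 55.2% and 15.7%, 16.6% and 54.6%, 55.2% and 15.6%, and 51.1% and 24.6% of all genes. Differences of at least 2-fold were seen in 3, 0 and 2 of the 7 in the successive steps and 3 over the whole course, beside 18.7%, 16.4%, 13.8% and 38.9% of all genes. As deposited these were 3, 1, 2 and 4, beside 23.8%, 24.4%, 18.3% and 44%. In the first step the oxidation and peroxisome genes differed most: fox-2 by 2.91 ± 0.033 and pex11 by 2.92 ± 0.055, above 99.1% and 99.2% of genes. The synthesis genes differed the other way in that step, by −0.71 ± 0.0054 for cel-2 and −0.66 ± 0.0056 for cel-1. For the acetyl-CoA carboxylase gene the difference of −0.29 ± 0.0065 became 0.13 as deposited. The median gene differed by 0.42, −0.49 and 0.41 log2 units between media in the successive steps and by 0.52 over the whole course. The shares of called genes that were lower on MSM were 49.9%, 48.7%, 53.2% and 49.7% around these medians and 22.1%, 76.7%, 22.1% and 32.5% as deposited.

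Some members were called in opposite directions on the media. In the first step this was pex11, higher on MSM and lower on BM, as were 7.83% of all genes, the difference between media being called as well. The reverse pattern, 9.06% of all genes, was found in 0 of the 7. From stage 2 to 3, far-1 and the acetyl-CoA carboxylase gene were higher on MSM and lower on BM, with 9.97% of all genes, but both rose on BM as deposited. The reverse pattern held 8.55% of all genes and 0 of the 7. From stage 3 to 4, fox-2, far-1 and far-2 were lower on MSM and higher on BM, with 10.4% of all genes, and 0 members had the reverse pattern of 7.07%. Of these, fox-2 differed by −1.91 ± 0.022 and far-2 by −1.76 ± 0.049, with 2.06% and 2.68% of genes lower, and far-1 by −0.22 ± 0.031, which was 0.19 as deposited. Over the whole course far-2 differed most, with −3.33 ± 0.049, a 10.1-fold lower change on MSM, and 2.41% of genes lay lower. Over that span far-2 was lower on MSM and higher on BM, with 10.1% of all genes, and fox-2 and far-1 were the reverse, with 9.54%. In that comparison fox-2 and pex11 were again nearly equal, 1.21 ± 0.016 and 1.19 ± 0.033.

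**Figure D4:**
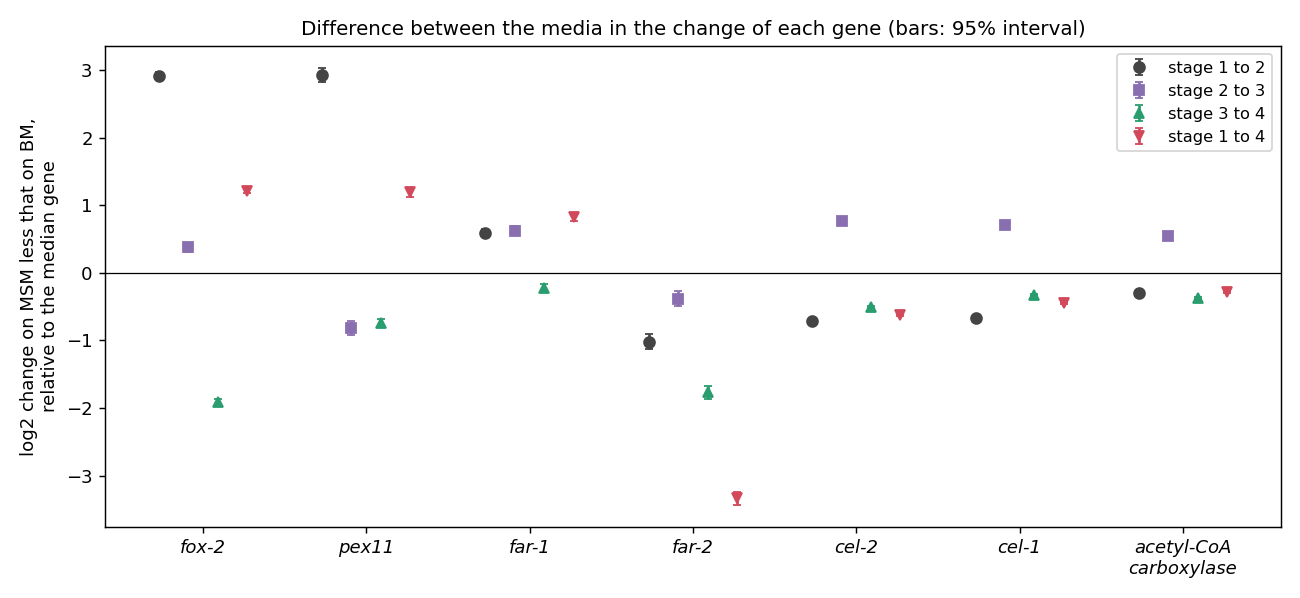
Difference between the log2 change on MSM and that on BM, relative to the median gene, for the 7 genes. It is shown for the 3 steps and from stage 1 to 4, with 95% intervals as error bars. From stage 1 to 2, fox-2 and pex11 lie together at 2.91 and 2.92, and from stage 1 to 4 far-2 lies at −3.33.

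The gap between fox-2 and pex11 was much the same on both media in the first step: fox-2 changed by −1.35 ± 0.059 log2 units relative to pex11 on BM and by −1.37 ± 0.025 on MSM. Over the whole course the gap was −1.39 ± 0.029 on BM and −1.37 ± 0.023 on MSM. In between it did not hold, since from stage 3 to 4 fox-2 rose more than pex11 by 0.63 ± 0.034 on BM and fell against it by 0.53 ± 0.014 on MSM. The difference between media from stage 1 to 2 was also positive for most other pex genes, 15 of 18 called positive and 1 negative (median 0.68), beside 33.1% of all genes called positive. All 18 lay below pex11 in this difference. As deposited 18 of 18 were positive, beside 55.2% of all genes, and with centring on the most precise genes 17 were, beside 43.8%. From stage 2 to 3 the difference was negative for pex11, −0.82 ± 0.053, and all 18 others lay above it. Of these, 12 were called positive and 4 negative (median 0.45), beside 34% and 32.3% of all genes. As deposited the counts were 6 and 8, beside 16.6% and 54.6%.

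By the distance over the 6 changes, the named genes most like fox-2 among 1095 candidates were acd-2 (0.59, r = 0.99), pex7 (1.29) and npd-2 (1.48). The nearest to pex11 was sod-1, a superoxide dismutase gene (0.81, r = 0.98). For far-1 they were gh31-1 (0.18), pex5 (0.44) and gpit-1 (0.45), and for far-2 tim17 (0.88) and tim44 (0.89), whose products import proteins into mitochondria. Both synthase genes had ccg-14 as their nearest gene (0.41 from cel-2 and 0.39 from cel-1) and hda-2 next (0.57 and 0.42). The nearest to the acetyl-CoA carboxylase gene was crf2-1 (0.47). The full set of 6 called directions was found in 13 (for far-2) to 29 (for the acetyl-CoA carboxylase gene) of 8676 genes, the member included. How many genes share the set of a typical gene was not tested.

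Downstream of beta-oxidation, acetyl-CoA enters the glyoxylate cycle, and 6 acetate-utilization (acu) genes were examined beside the members. On BM 2 rose and 4 fell from stage 1 to 2, beside 30.1% and 31.1% of all genes (as deposited 0 and 5, beside 8.09% and 61.2%). From stage 2 to 3 on BM 0 rose and 5 fell, beside 35.1% and 35.6% (as deposited 3 and 2, beside 56.6% and 18.8%). From stage 3 to 4 on BM 4 rose and 2 fell, beside 31.1% and 27.1% (as deposited 3 and 3, beside 10.9% and 56.7%). On MSM the counts were 3 and 3, 1 and 5, and 1 and 5, beside 36.2% and 36%, 34.4% and 32%, and 34.1% and 33.7% of all genes. The counts were the same as deposited, beside 37.4% and 35.1%, 32.1% and 34.2%, and 44% and 25.6%. The isocitrate lyase gene acu-3 and the malate synthase gene acu-9, the enzymes particular to the cycle, did not move together. In the first step acu-9 changed by −1.01 ± 0.023 on BM and by 1.92 ± 0.011 on MSM, a difference between media of 2.90 ± 0.026 that lay beside those of fox-2 and pex11, whereas acu-3 rose by 0.08 ± 0.0056 on BM and fell by 0.49 ± 0.0041 on MSM. The rise of acu-3 on BM was a fall as deposited. Over the whole course acu-3 fell by 2.21 ± 0.011 on BM and by 2.30 ± 0.0065 on MSM.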

How the data were processed

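Per the labels, 24 stranded, poly(A)-selected Illumina libraries of germinating conidia were sequenced, 3 for each of 4 times on 2 media. The submitters' processing notes name TopHat2 2.0.12 and HTSeq 0.6.1p1. From the read counts the authors estimated relative levels with LOX and deposited, for each gene and medium, a ratio of each stage to the lowest stage and how far its 95% bounds lie below and above. Each value merges 3 replicates, and read depth is not in the files used here, so precision was taken from the intervals, which may not hold all spread between replicates. The stage numbers of the columns were taken as the order of the labelled times.

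SEs were the interval width on the log2 scale divided by 2 normal quantiles. Stages were treated as independent. Genes with a level and lower bound above 0 at the stages compared were tested. Changes were centred on the median tested gene and put to a z test, two-sided, with Bonferroni adjustment at 0.01. Alternatives were no centring, centring on the 25% of genes with the smallest SE, Benjamini-Hochberg adjustment at 0.05, a minimum of 2-fold, SE multiplied by 3, and a log2 SE under 0.25. The procedure was tested on simulated data. Their noise was drawn with the same SEs that the test uses, so the simulation could not check the deposited intervals themselves. Gene positions came from RefSeq's NC12 annotation, in which 9729 of the 9730 IDs matched and 1118 had a symbol. Besides the members, named genes were those of symbol-based lists (peroxisome, oxidation, acetate, Woronin body, conidiation) and the 3 genes with a symbol nearest to each member by Euclidean distance over 6 changes. The members and lists were chosen with earlier results of these data known. A gene of the peroxisome list is not reported here and was left out of its counts. No symbol beyond the members fitted a list of fatty acid synthesis genes. SciPy 1.17.1, pandas 2.3.3 and numpy 2.4.6 were run under Python 3.11.15, with matplotlib 3.10.9 for the plots.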

Additional observations from a re-analysis of the deposited data

Results flagged for a closer look

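For each of the 7 genes the change on MSM differed from the change on BM, by the z test of the difference itself, in all 3 steps and from stage 1 to 4. The differences (log2 change on MSM less that on BM, relative to the median gene) of fox-2 were 2.91, 0.38 and −1.91 in the successive steps and 1.21 from stage 1 to 4. Those of pex11 were 2.92, −0.82 and −0.74, and 1.19 from stage 1 to 4. The regulator far-1 had 0.60, 0.62 and −0.22, and 0.82 over the whole course, whereas far-2 was negative throughout, with −1.02, −0.38 and −1.76, and −3.33. The synthase gene cel-2 had −0.71, 0.76 and −0.51, and −0.63, and cel-1 had −0.66, 0.71 and −0.33, and −0.45. The acetyl-CoA carboxylase gene had −0.29, 0.55 and −0.38, and −0.29. The 3 synthesis genes shared their signs in all 4 comparisons relative to the median gene, though not in all of them as deposited. Between 61% and 74.8% of all tested genes also passed this test.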

How the results depend on the processing

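Of 84 member changes, 69 kept their direction under all 6 alternatives and 15 did not, while 79 were called. As deposited, without centring, the BM change of far-1 became 0.25 from stage 2 to 3 and −0.15 from stage 3 to 4, and that of the acetyl-CoA carboxylase gene 0.17 from stage 2 to 3. On MSM cel-2 became −0.018 and cel-1 −0.011 from stage 2 to 3, and pex11 0.15 and far-1 0.040 from stage 3 to 4. The differences between media became 0.13 for the carboxylase gene from stage 1 to 2, −0.11 for fox-2 from stage 2 to 3, 0.19 for far-1, 0.084 for cel-1 and 0.036 for the carboxylase gene from stage 3 to 4, and 0.071 for cel-1 and 0.23 for the carboxylase gene from stage 1 to 4. Of these, the fox-2 difference and the carboxylase difference from stage 3 to 4 were not called, nor was that of far-1 from stage 2 to 3 (0.14). Centring on the most precise 25% of genes gave 0.032 for far-1 on BM from stage 2 to 3, and on MSM 0.12 for fox-2 from stage 1 to 2, −0.010 for cel-2 and −0.0042 for cel-1 from stage 2 to 3 and 0.0025 for pex11 from stage 3 to 4. These turns follow from the shift subtracted. That centring moved the share of lower calls from 50.4% to 36.8% on BM from stage 2 to 3, from 49.9% to 38.1% on MSM from stage 1 to 2, and between media from 49.9% to 35% from stage 1 to 2 and from 53.2% to 41.8% from stage 3 to 4. With a 2-fold minimum the called members numbered 2, 1, 1 and 2 on BM (3 steps, then stage 1 to 4), 4, 1, 1 and 4 on MSM, and 3, 0, 2 and 3 for the difference between media. As deposited and with that minimum, a setting chosen after seeing the data, they were 3, 2, 1 and 5, then 3, 1, 0 and 4, and 3, 1, 2 and 4. With the SE multiplied by 3, 11 calls were lost, 6 of them of far-1, and from stage 3 to 4 on BM 4 members remained called, without far-1, cel-1 and the carboxylase gene. No paired analysis was possible because the deposited values pool the 3 replicates, and for the same reason leaving out a replicate was not possible.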

Other observations

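Genes of the Woronin body, a plug that fungi build from peroxisomes to seal wounded hyphae, took another course than pex11 on BM. The gene hex-1, for the core protein of that body, had levels of 1, 1.23, 2.88 and 2.56 at stages 1 to 4 on BM and 1, 3.84, 6.12 and 11.4 on MSM. Relative to the median it rose on BM by 0.67 ± 0.0093 from stage 1 to 2, the step in which pex11 fell, and on MSM by 1.92 ± 0.0064. The gene wsc, for the membrane protein that sorts Woronin bodies, rose by 0.29 ± 0.015 on BM and 0.75 ± 0.014 on MSM in that step, but its rise on BM did not hold as deposited, where 1 of the 2 genes was called higher and 1 lower.

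The neighbours of pex11 and fox-2 on the chromosome had some changes in the same direction as these genes and some in the other. The gene npd-2, which lies 354 bases after pex11 in chromosome coordinates, changed on BM by −3.01 ± 0.042, 0.11 ± 0.052 and 1.37 ± 0.038 over the steps and on MSM by −0.35 ± 0.013, 0.28 ± 0.013 and 0.37 ± 0.011. The gene csy, 1270 bases before pex11, changed on BM by −0.47 ± 0.13, 1.55 ± 0.11 and 1.04 ± 0.053 and on MSM by 2.41 ± 0.087, 0.48 ± 0.044 and 1.27 ± 0.031. The gene NCU08827, 1087 bases after fox-2, changed on BM by −2.17 ± 0.15, 0.71 ± 0.18 and 0.62 ± 0.13 and on MSM by 0.42 ± 0.10, 0.73 ± 0.083 and 0.77 ± 0.058, so in the last step on MSM it rose where fox-2 fell. Whether neighbouring genes share changes more often than others was not tested.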
